A study of Mus musculus with 8 samples.

Results

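The genes described here belong to 4 hormone systems that set blood pressure and act on the heart, the angiotensin, endothelin, natriuretic peptide and urotensin systems. They are 10 of the 80155 loci measured in each heart: the angiotensin converting enzyme Ace, the angiotensin receptors Agtr1a and Agtr2, the endothelin precursor Edn1 and its receptors Ednra and Ednrb, the natriuretic peptide receptors Npr1 and Npr3, the urotensin-type peptide gene Uts2d and the urotensin receptor Uts2r. They were taken by name, ignoring case, and each name matched a locus. Uts2d was selected on its fall by P7 in these same hearts, so its stage difference is given as a description with no test. The rule names no value for the other 9, but all 10 were chosen with earlier results of these data known. Whole hearts of 4 male Hsd:ICR(CD-1) mice at postnatal day 1 (P1) and 4 at postnatal day 7 (P7), an outbred stock with no genotype or treatment in any group, were each made into 1 RNA-seq library, and the atrial appendages were taken off at harvest. P1 and P7 hearts came from different animals, and the comparison asks which RNAs differ between a heart that can still regenerate and one that has lost much of that ability.

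Angiotensinogen is cut by renin and then by Ace to angiotensin II, which acts through a Gq-coupled type 1 receptor (Agtr1a) that constricts vessels and promotes growth of heart muscle and matrix, and through a type 2 receptor (Agtr2) that is best known from fetal tissue and often opposes it. Endothelin, cut from the Edn1 product, is made largely by endothelial cells and acts on muscle cells through Ednra and on endothelial cells largely through Ednrb. Atrial and brain natriuretic peptides, made by heart muscle cells, act through the guanylyl cyclase Npr1, while Npr3 lacks the cyclase and removes the peptides. Urotensin II and the related peptide of Uts2d, which is named Uts2b in newer annotation, act on the receptor Uts2r.

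The promoter windows of Ace, Npr1 and Npr3, the 3 tested members whose stages did not overlap, are printed with that of Uts2d to place these genes on the genome and show the sequence at their starts. Each is the 120 bases before the RefSeq transcription start on GRCm38.p6, written 5′ to 3′ on the strand of the gene, and capitals mark matches to 4 motifs that were searched on both strands and whose letters are given after the sequences.
Ace, chr11:105967828-105967947, plus strand: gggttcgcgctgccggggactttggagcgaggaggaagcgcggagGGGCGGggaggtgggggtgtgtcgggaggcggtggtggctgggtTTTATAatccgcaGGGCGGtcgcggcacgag
Npr1, chr3:90465867-90465986, minus strand: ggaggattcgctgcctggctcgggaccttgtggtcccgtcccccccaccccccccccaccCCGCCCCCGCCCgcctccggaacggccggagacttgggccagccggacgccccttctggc
Npr3, chr15:11907372-11907491, minus strand: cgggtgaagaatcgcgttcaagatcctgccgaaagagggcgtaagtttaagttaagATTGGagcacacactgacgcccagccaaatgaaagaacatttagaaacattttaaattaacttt
Uts2d, chr16:27370240-27370359, minus strand: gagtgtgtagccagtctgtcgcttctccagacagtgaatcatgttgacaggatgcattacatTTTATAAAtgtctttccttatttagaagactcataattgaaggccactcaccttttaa
These windows of Ace and Npr1 each held 2 Sp boxes, written GGGCGG, a motif found in 26.5% of the 32851 RefSeq promoter windows of this length. The core promoter motif with the letters TATAAA was present in 6.34% of windows. It matched on the opposite strand in the Ace window and on both strands, overlapping in the same run of capitals, in the Uts2d window. Npr3 matched the promoter motif with the letters CCAAT, present in 21.3% of windows. The fourth motif, written AGATAA, was in the window of no member and in 4.36% of all windows. The GC content was 70.8% for Ace, 77.5% for Npr1, 40.8% for Npr3 and 38.3% for Uts2d. Ace has another RefSeq window, within the gene at chr11:105975069-105975188, with 60.0% GC, a CCAAT match and no match to the other motifs. RefSeq windows were found for 9 of the 10 members, with Agtr1a unmatched, and a match of letters is a description of the window and not evidence of binding.

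The deposited values are FPKM, fragments scaled to the length of the locus in kilobases and to the number of mapped fragments of the library, so levels of different genes can be set side by side. The fragments behind a value are not given in the files, and its counting precision is therefore unknown. A level of 1 FPKM or more in any heart was reached by 43172 loci, 17960 of them annotated with a gene symbol. These were compared between the stages with limma on log2(FPKM + 1), and a differentially expressed gene (DEG) had to have an adjusted p under 0.05, Benjamini-Hochberg over every tested locus, and mean levels that differed 1.5-fold or more. Fold changes on this scale, written log2FC and taken as P7 minus P1, understate the change of weakly expressed genes. Of the members, 9 of 10 were tested in this sense and each of the 9 reached 1 FPKM in hearts of both stages, while Uts2r stayed below it in every heart. The p-values of limma rest on the spread between the animals within a stage, moderated by the spread of all tested loci. Whether the mice of a stage were littermates is not given in the sources used here.

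Heart muscle markers (Myh6, Actc1, Tnnt2, Tnni3, Myl2, Ryr2) summed to 17726 to 32163 FPKM in P1 hearts and 21706 to 34546 FPKM in P7 hearts, the highest of the marker lists. The atrial markers Myl7, Myl4, Sln and Nppa remained high, at 3900 to 5055 and 3898 to 5289 FPKM. Among the fibroblast markers 3 of 4 were DEG and higher in P7 (summed FPKM 302 to 499 in P1 and 706 to 825 in P7), among the endothelial markers Cdh5 and Tie1 of 5 (63.6 to 121 and 107 to 163), and among the pericyte markers Pdgfrb and Kcnj8 of 5 (78.6 to 154 and 124 to 210). Smooth muscle markers summed to 251 to 529 FPKM in P1 and 132 to 247 FPKM in P7, mostly from Acta2. Of these 4 Cnn1 was a DEG and lower in P7. Mean FPKM at P1 and P7 was 281 and 148 for Acta2, 11.9 and 5.16 for Cnn1, 34.6 and 33.7 for Tagln and 2.03 and 3.13 for Myh11. Summed macrophage markers were 12.05 to 15.8 and 18.9 to 28.1 FPKM, epicardial markers 8.47 to 19.3 and 11.96 to 20.03 FPKM, Schwann cell markers 2.81 to 5.07 and 2.49 to 8.44 FPKM, and red cell markers, of which 3 of 4 had a locus, 275 to 799 and 736 to 998 FPKM. No marker was at 0 in every heart. Shares over annotated loci were 7.74% DEG and higher in P7 and 0.401% DEG and lower. The marker calls varied with the processing. After GC correction they were 2 for fibroblasts and 0 for endothelial cells, pericytes and smooth muscle. Without P1 replicate 2 they were 0 in each of these lists, and without P1 replicate 4 they were 3, 2, 4 and 2. The part of these lists in the differences below was not tested, and in whole-heart RNA fewer cells of a type and less RNA per cell cannot be told apart.

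Ace and Npr1 were the DEG among the 8 tested members other than Uts2d, both higher in P7, and no member was lower at this threshold. By limma without adjustment, 3 members were higher and 2 lower at p under 0.05, against 25.6% and 4.10% of annotated loci. Of all annotated loci, 7.74% were DEG and higher in P7 and 0.401% were DEG and lower. The log2FC was positive for 4 of the 8 members and negative for 4, with a median of 0.01, while over all annotated loci 67.6% were positive with a median of 0.19. In 2 of the 8 members all P7 hearts lay above the whole P1 range, a pattern of 17.3% of annotated loci, and in 1 they lay below it, a pattern of 2.69%.

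**Figure D1:**
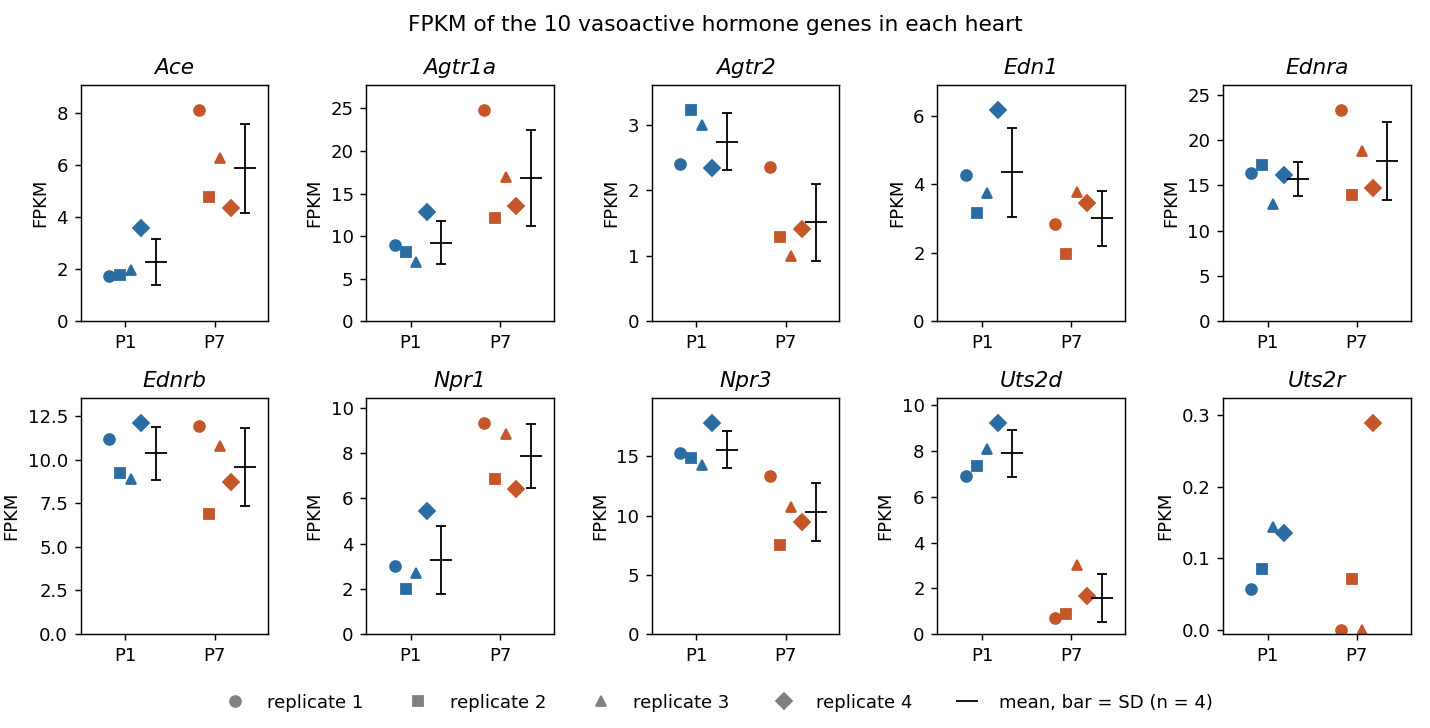
FPKM (y axis, linear, a scale of its own in each panel) of the 10 members in each P1 and P7 heart. Each point is 1 heart, its shape gives the replicate number, and the black mark and bar give mean and SD of 4 hearts (left out for Uts2r, which was at 0 in P7 replicates 1 and 3). The stages do not overlap for Ace, Npr1, Npr3 and Uts2d.

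Ace, the enzyme that makes angiotensin II and breaks down bradykinin, was upregulated in P7. The gene (ENSMUSG00000020681.14) lies on the plus strand of chromosome 11 of GRCm38, where the deposited locus spans 105965608 to 105990018, and its longest transcript in GENCODE M21 has 25 exons. Its FPKM was 1.72, 1.78, 1.98 and 3.59 in P1 replicates 1 to 4 and 8.11, 4.76, 6.29 and 4.34 in P7 replicates 1 to 4. All P7 hearts were above all P1 hearts, although the highest P1 heart, replicate 4, came close to the lowest P7 heart. The mean went from 2.27 ± 0.888 to 5.88 ± 1.71 FPKM (SD, n = 4 each), a ratio of 2.59 and a log2FC of 1.08 (standard error 0.23, limma adjusted p = 0.0286). In its rank among annotated loci Ace moved from percentile 32.7 to percentile 50.7 of mean FPKM.

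Npr1, the receptor through which atrial and brain natriuretic peptides raise cyclic GMP, was upregulated by a similar ratio. It lies on the minus strand of chromosome 3 (90450590 to 90465887) and its longest transcript has 22 exons. The P1 hearts had 3.00, 1.98, 2.68 and 5.43 FPKM and the P7 hearts 9.33, 6.87, 8.86 and 6.44 FPKM, in the order of the replicates. Again no P7 heart fell within the P1 range, and again P1 replicate 4 was the highest heart of its stage. Means were 3.27 ± 1.50 and 7.87 ± 1.43 FPKM (SD, n = 4 each), a ratio of 2.40 and a log2FC of 1.10 (standard error 0.24, limma adjusted p = 0.0288).

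Both calls depended on single hearts and on the processing. When P1 replicate 1, 2 or 3 or P7 replicate 1 or 3 was left out, in this order, the limma adjusted p was 0.0718, 0.102, 0.0702, 0.0885 and 0.0848 for Ace and 0.0622, 0.104, 0.0731, 0.0887 and 0.0866 for Npr1, with log2FC over all 8 such fits of 0.93 to 1.25 and 0.95 to 1.32. Without P1 replicate 1, 2 or 3 or P7 replicate 1 or 3, the DEG over all loci also fell, from 1650 to between 199 and 928. Correction for the GC content of the transcripts also ended both calls, at a log2FC of 0.78 (adjusted p = 0.131) for Ace and 0.73 (adjusted p = 0.163) for Npr1. Loci with the symbols of annotated antisense genes overlap both genes, Gm11651 at Ace with 0 to 0.609 FPKM and Gm16048 at Npr1 with 0 to 0.325 FPKM over the 8 hearts, and the use of strand in the counting is not given in the sources used here.

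Agtr1a, the receptor that carries most known actions of angiotensin II, had a higher mean in P7 that did not pass the threshold. It lies on the plus strand of chromosome 13 (30336378 to 30383597). Its FPKM was 8.94, 8.15, 6.94 and 12.85 in the P1 hearts and 24.8, 12.2, 16.9 and 13.5 in the P7 hearts. P7 replicates 1, 3 and 4 were above every P1 heart, while P7 replicate 2 was below P1 replicate 4. The means were 9.22 ± 2.56 and 16.8 ± 5.66 FPKM (SD, n = 4 each), a log2FC of 0.79 (standard error 0.25, limma adjusted p = 0.106). Without P1 replicate 4 the gene was called, at a log2FC of 0.94 and a limma adjusted p of 0.0342. This was the only 1 of the 8 fits with a heart left out that called it. The log2FC was lowest without P7 replicate 1, at 0.59 (limma adjusted p = 0.264).

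Agtr2 had the opposite sign. It lies on the plus strand of the X chromosome (21484544 to 21489164), of which each of these male mice carries a single copy. The values were 2.40, 3.22, 3.00 and 2.34 FPKM in P1 and 2.35, 1.29, 0.994 and 1.41 FPKM in P7. P7 replicate 1 lay within the P1 range and the other P7 hearts lay below it. The means of 2.74 ± 0.437 and 1.51 ± 0.587 FPKM (SD, n = 4 each) gave a log2FC of -0.60 (standard error 0.20, limma adjusted p = 0.141).

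The ratio of Agtr1a to Agtr2 within a heart, which a common scale of the heart's values touches only through the pseudocount, separated the stages. It was 3.72, 2.53, 2.31 and 5.49 in the P1 hearts and 10.5, 9.42, 17.0 and 9.61 in the P7 hearts, with means of 3.51 ± 1.46 and 11.6 ± 3.61 (SD, n = 4 each). P7 hearts thus held more type 1 receptor RNA per type 2 receptor RNA than any P1 heart. On the scale of log2(FPKM + 1) the difference of the log2 ratios was 1.38, with p = 0.0286 by a two-sided exact permutation test over 70 splits, the smallest p that 4 hearts against 4 allow, and 0.0429 after Benjamini-Hochberg adjustment over the 3 receptor ratios examined. This ratio is not independent of the values of its 2 genes. Its adjusted p also rests on the equal p of Npr1 to Npr3, which was fixed by the values of those genes. GC correction is not a common scale of a heart's values, and no receptor ratio was computed under it.

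Of the renin-angiotensin genes that were not members, Agt and Anpep were DEG and higher in P7. None of the 13 tested genes was a DEG and lower. Over annotated loci these shares were 7.74% and 0.401%. Limma without adjustment gave 5 higher and 0 lower at p under 0.05, against 25.6% and 4.10% of annotated loci. Agt, which encodes angiotensinogen, had 1.82, 1.14, 0.704 and 0.926 FPKM in P1 and 4.06, 2.52, 3.78 and 2.80 FPKM in P7, with means of 1.15 ± 0.481 and 3.29 ± 0.744 (SD, n = 4 each; log2FC 1.01, standard error 0.21, limma adjusted p = 0.0259). Anpep, an aminopeptidase that trims angiotensin III, rose from 1.65 ± 0.498 to 4.09 ± 0.794 FPKM (SD, n = 4 each; log2FC 0.95, standard error 0.20, limma adjusted p = 0.0246). For both, the P7 hearts lay above all P1 hearts. Renin was hardly present, with Ren1 at 0 to 0.109 FPKM over the 8 hearts. The list held 17 genes, of which 16 had a locus and 13 were tested.

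The endothelin genes gave no DEG. Edn1, the endothelin precursor (chromosome 13, 42301270 to 42307989), had 4.28, 3.17, 3.76 and 6.16 FPKM in P1 and 2.84, 1.95, 3.77 and 3.44 FPKM in P7. P7 replicates 1 and 2 were below every P1 heart and the other P7 hearts were within the P1 range. Means were 4.34 ± 1.29 and 3.00 ± 0.801 FPKM (SD, n = 4 each), with a log2FC of -0.41 (standard error 0.22, limma adjusted p = 0.343).

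The deposited locus of Ednra spans 77610860 to 77768970 on chromosome 8, and the gene itself lies within it at 77663031 to 77724464. Ednra, the receptor of muscle cells, was the most abundant member by mean FPKM at both stages. It was 16.4, 17.2, 13.0 and 16.2 FPKM in P1 and 23.3, 13.9, 18.7 and 14.7 FPKM in P7, with overlapping stages and a log2FC of 0.14 (standard error 0.20, limma adjusted p = 0.680) whose sign turned under other scalings of the hearts. Ednrb (chromosome 14, 103814613 to 103844523) had 11.2, 9.26, 8.89 and 12.1 FPKM in P1 and 11.96, 6.89, 10.8 and 8.70 FPKM in P7. Its stages overlapped too, at a log2FC of -0.12 (standard error 0.20, limma adjusted p = 0.736), a sign that turned after GC correction and without P7 replicate 2. A p above the threshold does not show that the levels of these receptors were equal at P1 and P7.

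The ratio of Ednra to Ednrb was 1.46, 1.86, 1.46 and 1.34 in the P1 hearts and 1.95, 2.02, 1.73 and 1.69 in the P7 hearts. Ednra was thus the higher of the pair in every heart, and P1 replicate 2 lay within the P7 range. The difference of the log2 ratios was 0.26 (two-sided exact permutation test, p = 0.0857, adjusted p = 0.0857). Of the 6 other endothelin genes 3 were tested and by limma none was a DEG, with 0 at an unadjusted p under 0.05. Of annotated loci 25.6% were higher and 4.10% lower at that unadjusted p. The endothelin converting enzyme Ece1 had means of 11.3 ± 3.40 and 14.2 ± 3.15 FPKM (SD, n = 4 each; log2FC 0.32, limma adjusted p = 0.446), while Edn2 and Edn3, which encode the other endothelins, were below 1 FPKM in every heart. The Ednra locus shares its span with 18 loci named 4933431K23Rik, whose strand the files do not give, the highest of which had 26.3, 22.0, 27.9 and 36.9 FPKM in P1 and 17.9, 18.4, 18.1 and 7.67 FPKM in P7, and with a locus of 1700092C02Rik at 0 in every heart.

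Npr3, the clearance receptor, was lower in all P7 hearts than in the lowest P1 heart, but was not a DEG. On the minus strand of chromosome 15 (11839896 to 11907259), it had 15.3, 14.9, 14.2 and 17.8 FPKM in P1 and 13.3, 7.49, 10.7 and 9.49 FPKM in P7. The highest P7 heart, replicate 1, lay just under the lowest P1 heart. Means of 15.6 ± 1.56 and 10.3 ± 2.45 FPKM (SD, n = 4 each) gave a log2FC of -0.58 (standard error 0.20, limma adjusted p = 0.139).

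Median-ratio scaling of the hearts moved the median log2FC of annotated loci from 0.19 to -0.01, and quantile normalization moved it to 0.08. Npr3 was called under both, with a log2FC of -0.82 (limma adjusted p = 0.00854) under median-ratio scaling and -0.83 (adjusted p = 0.00916) under quantile normalization. Edn1 was called under median-ratio scaling, at -0.62 (adjusted p = 0.0357), and not under quantile normalization, at -0.59 (adjusted p = 0.0637). Ace and Npr1 stayed called under both, so the 2 higher and 0 lower DEG among the members became 2 higher and 2 lower under median-ratio scaling and 2 higher and 1 lower under quantile normalization. Over all tested loci the split of 1490 higher and 160 lower became 1479 higher and 1075 lower, and 1537 higher and 750 lower. GC correction moved the values the other way, to a log2FC of -0.36 for Npr3 (limma adjusted p = 0.355), -0.31 for Agtr2 (adjusted p = 0.401) and -0.25 for Edn1 (adjusted p = 0.520).

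The ratio of Npr1 to Npr3, the signaling against the clearance receptor, was 0.196, 0.133, 0.188 and 0.305 in the P1 hearts and 0.699, 0.917, 0.824 and 0.678 in the P7 hearts. Npr3 RNA exceeded Npr1 RNA in all 8 hearts, with less of a gap in the P7 hearts than in the P1 hearts, which did not overlap. The means were 0.206 ± 0.0719 and 0.780 ± 0.112 (SD, n = 4 each). The difference of the log2 ratios was 1.68 (two-sided exact permutation test, p = 0.0286, the smallest possible here, adjusted p = 0.0429). All P7 hearts were above the P1 range for Npr1 and below it for Npr3. The stages of this ratio therefore had to be apart, and its p was fixed by those values and adds no support beyond them.

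**Figure D2:**
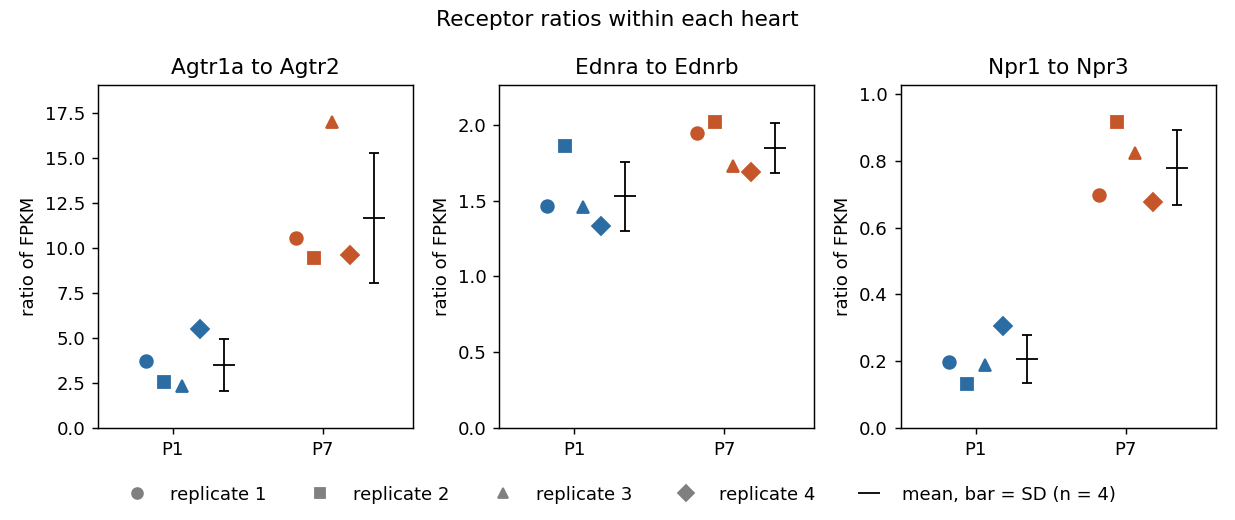
Ratio of the FPKM of 2 receptors within each heart (y axis, linear, from 0) for the angiotensin, endothelin and natriuretic peptide receptors at P1 and P7. Each point is 1 heart with its replicate number as shape, and the black mark and bar give mean and SD of 4 hearts. The stages are apart for Agtr1a to Agtr2 (2.31 to 5.49 against 9.42 to 17.0) and Npr1 to Npr3 (0.133 to 0.305 against 0.678 to 0.917), and overlap for Ednra to Ednrb.

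RNAs of the atrial and brain natriuretic peptides were far more abundant than those of their receptors, and neither was a DEG. Nppa, which encodes atrial natriuretic peptide, had 1432, 1780, 1516 and 1315 FPKM in P1 and 1119, 800.3, 1188 and 1178 FPKM in P7. All P7 hearts were below all P1 hearts, at a log2FC of -0.50 (standard error 0.23, limma adjusted p = 0.262). Nppb, the gene of brain natriuretic peptide, overlapped between the stages, with means of 531 ± 148 and 448 ± 179 FPKM (SD, n = 4 each; log2FC -0.29, limma adjusted p = 0.581), and Nppc, which encodes the C-type peptide, was below 1 FPKM in every heart. Its receptor Npr2 had 3.88, 4.68, 3.41 and 6.35 FPKM in P1 and 10.3, 7.78, 8.31 and 6.52 FPKM in P7, without overlap (log2FC 0.74, standard error 0.21, limma adjusted p = 0.0774). For Corin, the protease that activates atrial natriuretic peptide and whose locus also carries the symbol AU023070, the means were 21.3 ± 3.58 and 24.4 ± 6.63 FPKM (SD, n = 4 each; log2FC 0.17, limma adjusted p = 0.647), and the sign turned under median-ratio scaling and quantile normalization. Of 13 natriuretic peptide genes beside the members 10 were tested. Limma without adjustment put 4 higher and 1 lower at p under 0.05, against 25.6% and 4.10% of annotated loci.

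Uts2d was high in P1 hearts and low in P7 hearts, the difference on which it was selected. It lies on the minus strand of chromosome 16 (27353322 to 27370239) and its longest transcript has 5 exons and 835 bases. The FPKM was 6.91, 7.35, 8.11 and 9.23 in P1 replicates 1 to 4 and 0.715, 0.887, 3.04 and 1.68 in P7 replicates 1 to 4. Every P7 heart was below every P1 heart, and P7 replicate 3 kept the most. Means were 7.90 ± 1.01 and 1.58 ± 1.06 FPKM (SD, n = 4 each), a ratio of P1 over P7 of 5.003 and a log2FC of -1.86. Among annotated loci its level went from percentile 63.2 to percentile 21.7.

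The receptor Uts2r (plus strand of chromosome 11, 121160271 to 121161973, 1 exon) had 0.0567, 0.0855, 0.144 and 0.136 FPKM in P1 and 0, 0.0706, 0 and 0.290 FPKM in P7. It was near the bottom of the annotated loci at both stages and was not tested. Uts2, the gene of urotensin II itself, was listed at 0 in 7 hearts and at 0.185 FPKM in P7 replicate 1. In these hearts Uts2d was thus the member of the urotensin system with FPKM above 1, while its receptor did not exceed 0.290 FPKM in any heart.

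The loci whose log2(FPKM + 1) over the 8 hearts, centred on its mean, differed least from that of Uts2d by root mean square were Casq1 (0.226), Idi1 (0.248) and Sc4mol (0.329), picked for this likeness and not tested. Casq1, the calsequestrin best known from skeletal muscle, had 27.3, 44.3, 46.8 and 53.3 FPKM in P1 and 9.90, 9.14, 22.2 and 13.7 FPKM in P7. Idi1, an isomerase of the mevalonate pathway, had 37.2, 36.7, 36.4 and 29.3 FPKM in P1 and 5.61, 6.69, 15.8 and 13.9 FPKM in P7. Sc4mol, a sterol oxidase of cholesterol synthesis, had 87.6, 70.2, 80.6 and 76.4 FPKM in P1 and 15.2, 26.3, 51.6 and 36.1 FPKM in P7. In all 3, as in Uts2d, the highest P7 heart was replicate 3, a likeness that the way they were picked favours.

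By mean FPKM the order of the members at P1 was Ednra, Npr3, Ednrb, Agtr1a, Uts2d, Edn1, Npr1, Agtr2, Ace and Uts2r. Neighbours in this order had overlapping ranges except Npr3 above Ednrb, Uts2d above Edn1 and Ace above Uts2r. At P7 the order was Ednra, Agtr1a, Npr3, Ednrb, Npr1, Ace, Edn1, Uts2d, Agtr2 and Uts2r, with ranges apart only for Ace above Edn1 and Agtr2 above Uts2r. Ace thus stood below Edn1, Agtr2 and Uts2d by mean at P1 and above all 3 at P7.

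Many of these receptors signal through Gq, phospholipase C beta and protein kinase C, or through related G proteins. Of the 18 genes listed for this signaling 17 were tested, and the G proteins Gna11 and Gna12 were DEG. Gna11, a close relative of Gq, rose from 9.92 ± 2.87 to 20.8 ± 1.92 FPKM (SD, n = 4 each; log2FC 1.03, standard error 0.21, limma adjusted p = 0.0225). Gna12, the gene of another G protein alpha subunit, rose from 6.74 ± 2.65 to 14.2 ± 2.50 FPKM (SD, n = 4 each; log2FC 1.02, standard error 0.24, limma adjusted p = 0.0387). In both genes all P7 hearts were above all P1 hearts. Gnaq, the gene of Gq itself, had means of 20.01 ± 2.89 and 20.2 ± 3.78 FPKM (SD, n = 4 each). None of the 17 was a DEG and lower, while over annotated loci 7.74% were DEG and higher and 0.401% DEG and lower. At p under 0.05 limma without adjustment gave 7 higher and 0 lower, against 25.6% and 4.10% of annotated loci.

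Over the 43 tested genes of these systems beside the members, 4 were DEG and higher in P7 and 0 were DEG and lower, against 7.74% and 0.401% of annotated loci. Without adjustment limma put 16 higher and 1 lower at p under 0.05, against 25.6% and 4.10%. The log2FC was positive in 35, with a median of 0.32, against 67.6% positive and a median of 0.19 over annotated loci. All P7 hearts lay above the P1 range in 12 genes and below it in 1, against 17.3% and 2.69%. The calls of Agt, Anpep, Gna11 and Gna12 were all lost when P1 replicate 2 or 3 or P7 replicate 1 or 3 was left out (limma adjusted p from 0.0565 to 0.126). Gna12 was also lost when P1 replicate 1 or P7 replicate 2 or 4 was left out (0.0692, 0.0536 and 0.0715), and Anpep when P1 replicate 1 or P7 replicate 4 was (0.0526 and 0.0509). After GC correction their log2FC was 0.62 to 0.78, with limma adjusted p of 0.0775 to 0.220.

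**Figure D3:**
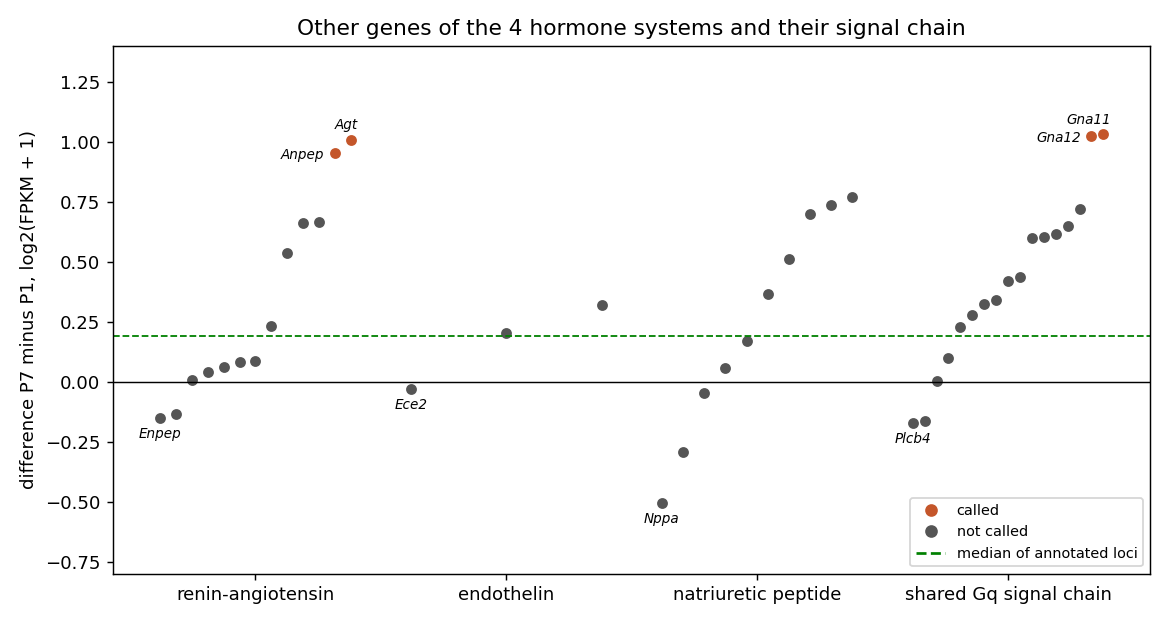
Difference of P7 minus P1 (y axis, log2(FPKM + 1) scale) for the 43 tested genes of the angiotensin, endothelin and natriuretic peptide systems and the signal chain that are not among the 10 members. Each point is the estimate of limma for 1 gene from 4 hearts a stage, ordered within its list, with called genes and the lowest gene of each list named. The 4 called genes lie at 0.95 to 1.03, above the median of annotated loci (dashed line, 0.19), and Nppa is lowest at -0.50.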

How the data were processed

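RNA-seq libraries of 4 P1 and 4 P7 whole hearts, 1 per animal, were prepared by the authors with the ScriptSeq v2 kit after ribosomal RNA depletion and aligned to GRCm38 with Ensembl 70 annotation. The aligner is not given in the sources used here. The deposited unit is FPKM per locus, normalized by the authors; the files hold no counts and low values fell in steps that differed between loci and hearts, so counts were not rebuilt and depth per value is unknown. A symbol was matched ignoring case, symbols joined by commas were split, and among loci of the same symbol that of the highest mean level was taken. Locus starts count from 0 in the files and from 1 here. The members and gene lists were chosen with earlier results of these data known.

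Loci that reached 1 FPKM in any heart were fitted on log2(FPKM + 1) with limma 3.58.1 (R 4.3.3, lmFit, eBayes with trend), all 8 hearts and no covariates, and Benjamini-Hochberg adjustment over 43172 loci. Receptor ratios were compared with a two-sided exact permutation test (scipy 1.17.1). Named were the members, 10 fixed genes of the wider systems (1 is not reported here), up to 10 further called genes of these systems with the largest change, loci overlapping a member, and the 3 annotated loci most like Uts2d. Alternatives were another pseudocount (0.1), no filter, a minimum of 1 FPKM in all 8 hearts, quantile normalization, median-ratio scaling (annotated loci), sample weights, a block for the replicate number, no trend in eBayes, no minimum ratio, loci with 1 symbol of their own, GC correction (transcripts of GENCODE M21, lowess span 0.3, GC known for 91.7% of annotated tested loci) and each heart left out. The scripts were tested on simulated data. Promoter windows and exons come from RefSeq (GRCm38.p6) and GENCODE M21.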

Additional observations from a re-analysis of the deposited data

Results flagged for a closer look

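In the genes named here, each stage of 4 hearts was searched for a heart far from the other 3, by its gap to the nearest heart divided by the range over the stage (Dixon's test at the 95% level). Of 57 groups 5 stood out, where chance picks out about 1 in 20 groups of measured values. In 2 of the 5, Ren1 and Uts2 in P7, the other 3 hearts are listed at 0, which fixes the gap share at 1.0 for any value above 0. P1 replicate 4 was high for Ace (gap share 0.863; 3.59 FPKM against 1.72 to 1.98) and low for Idi1 (0.896; 29.3 FPKM against 36.4 to 37.2). Without it, Ace had a log2FC of 1.25 (limma adjusted p = 0.00777). P7 replicate 4 was low for the highest locus of 4933431K23Rik, which overlaps Ednra (0.955; 7.67 FPKM against 17.9 to 18.4), and was the only P7 heart in which Ren1 was not listed at 0 (1.0; 0.0781 FPKM). P7 replicate 1 was the only P7 heart in which Uts2 was not listed at 0 (1.0; 0.185 FPKM).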

How the results depend on the processing

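The log2FC of Ace and Npr1 kept its sign in all 20 alternatives and each gene was called in 12 of them, with log2FC of 0.78 to 1.36 and 0.73 to 1.32 and adjusted p of 0.00503 to 0.167 and 0.00526 to 0.187. The number of called members (2 as reported, of 8) was 4 with median-ratio scaling, 5 over loci with 1 symbol of their own, where fewer loci were tested, and 0 with no filter, with GC correction and with GC correction and a replicate block; at an unadjusted p under 0.05 limma then gave 5, 3 and 3 members. With each heart left out it was 0 to 3 (5 members at an unadjusted p under 0.05 in every such fit). For the genes beside the members (4 as reported) the number was 0 with no filter, GC correction and GC correction with a replicate block (17, 14 and 12 at an unadjusted p under 0.05), 11 with a minimum of 1 FPKM in all hearts, 14 with sample weights, 12 over loci with 1 symbol, and 0 to 12 with each heart left out. Over all loci (1650 as reported) it was 260 with no filter, 2711 with that minimum, 2554 with median-ratio scaling, 3697 with sample weights, 1079 without a trend, 2763 over loci with 1 symbol, 457 with GC correction, 555 with GC correction and a replicate block, and 199 to 3379 with each heart left out, lowest without P1 replicate 2 and highest without P1 replicate 4. The cause was not tested.

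The sign turned for Ednra (-0.11 under both median-ratio scaling and quantile normalization), for Ednrb (0.10 with GC correction, with and without a replicate block, and -0.22 to 0.016 with each heart left out, above 0 without P7 replicate 2) and for Corin (-0.084 under median-ratio scaling and -0.087 under quantile normalization).

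The replicate numbers do not pair the animals: deviations of hearts with the same number correlated at 0.06, 0.22, -0.28 and -0.12, a mean of -0.03 against 0.01 for different numbers. A replicate block gave 1283 loci, 2 members and 4 of the genes beside them, and changed no call of a member or of these genes; of the marker genes, Col1a1 and Cdh5 lost theirs (adjusted p = 0.0523 and 0.0566). In paired form the P7 minus P1 difference of the log2 ratio was 1.38 for Agtr1a to Agtr2 and 1.68 for Npr1 to Npr3. Each had an exact sign-flip p of 0.125, the smallest that 4 pairs allow. Without 1 heart these differences were 1.24 to 1.59 and 1.54 to 1.83, where the smallest exact permutation p of 7 hearts is 0.0571. The fragments behind each FPKM are unknown, so low values such as those of Uts2r, Ren1 and Uts2 carry no stated precision.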

Other observations

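P1 replicate 4 was the highest P1 heart in 7 of the 10 members, namely Ace, Agtr1a, Edn1, Ednrb, Npr1, Npr3 and Uts2d, whose stage differences had both signs. P7 replicate 1 was the highest P7 heart in 7 members, and P7 replicate 2 the lowest in 5. The scale factor of a heart from the median ratio over annotated loci was 1.16 in P1 replicate 4 against 0.779 to 0.950 in the other P1 hearts, and 1.17 in P7 replicate 1 against 0.929 to 1.30 in the other P7 hearts. Ostn, which encodes osteocrin, a ligand of Npr3, and lies next to Uts2d on chromosome 16 (27307489 to 27351212), had 0 to 0.139 FPKM over the 8 hearts.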
